A study of Mus musculus with 2 samples.

Results

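Rsad2-expressing stem and progenitor cells are marrow cells in which at least 3 unique molecular identifiers (UMIs, each standing for 1 captured transcript) of Rsad2 were counted. They numbered 264 of 11214 cells, 119 of 6375 in the library of naive mice and 145 of 4839 in the library of mice challenged with Listeria monocytogenes. A cell was a barcode with at least 2500 UMIs, at least 500 genes and at most 10% mitochondrial UMIs. Cells with more than 3 UMIs of the B-lineage genes Cd79a and Vpreb3 together, with 50 or more of the neutrophil genes S100a8 and S100a9, or with 5 or more of the platelet genes Pf4, Itga2b, Cavin2 and Gp9 were left out. The 4475 naive and 3916 Listeria cells that remained are called eligible, and the comparison cells were the 3895 and 3391 eligible cells with no Rsad2 UMI. The members were chosen by their measured UMIs of Rsad2 and of the 8 genes of the exclusions, so the values of those 9 genes are a description.

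Rsad2 encodes viperin, a radical SAM enzyme that turns CTP into the chain-terminating nucleotide ddhCTP and restricts many viruses. It belongs to the interferon-stimulated genes, which are switched on when type I interferon signals through its receptor, or when IRF3 is activated directly by nucleic acid sensors. Haematopoietic stem cells respond to interferons and to inflammatory cues, and NF-kB and AP-1 factors drive many of the chemokine genes of such responses.

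The study profiled marrow cells labelled as HSCs by droplet-based 3' single-cell RNA sequencing. Both groups were wild-type C57BL/6J mice with a stated age of 6 to 8 weeks: the naive group had no treatment, and the other had received Listeria monocytogenes 6 weeks before. Marrow came from femora and tibiae after red cell lysis, and the sources used here do not say how many animals were pooled, how the cells were sorted or at which point the age applies. The deposited files of the Listeria library carry a knockout tag in their names where the label says wild type, so a difference in genotype cannot be told apart from the challenge. Each group is 1 library, so there is no replicate: intervals given here are 95% intervals, cover counting error only, and describe these libraries, not the conditions. The libraries held 64619150 and 43895966 UMIs. The libraries shared 14 cell barcodes, 1 of them in a naive gated cell and 0 in Listeria gated cells.

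The bases before the start sites of some of the genes on which the results turn are shown first. Several carry the sequence that interferon-activated factors bind, and others do not. Each is the 250 bases before the RefSeq start site (GRCm38.p6), 5' to 3' on the strand of the gene. Capitals mark 2 searched patterns, both read on both strands: GAAANNGAAA, the core of the interferon-stimulated response element, and GGGANNTNCC, a kB-type site of NF-kB. The windows are Rsad2 on chr12:26456453-26456702 (minus strand), Ifit1 on chr19:34640639-34640888 (plus), Isg15 on chr4:156200819-156201068 (minus), Cxcl10 on chr5:92348890-92349139 (minus), Cxcl2 on chr5:90903649-90903898 (plus) and Cmpk2 on chr12:26468965-26469214 (plus).
Rsad2: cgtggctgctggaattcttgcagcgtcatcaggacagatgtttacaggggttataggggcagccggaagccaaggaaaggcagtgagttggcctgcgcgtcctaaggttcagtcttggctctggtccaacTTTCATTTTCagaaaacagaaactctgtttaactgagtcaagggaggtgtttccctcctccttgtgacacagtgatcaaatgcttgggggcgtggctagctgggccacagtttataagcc
Ifit1: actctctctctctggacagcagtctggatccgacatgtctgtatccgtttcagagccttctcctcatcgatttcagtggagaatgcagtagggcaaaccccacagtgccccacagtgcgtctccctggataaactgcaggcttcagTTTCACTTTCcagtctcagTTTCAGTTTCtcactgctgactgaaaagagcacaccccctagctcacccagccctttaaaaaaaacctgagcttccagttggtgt
Isg15: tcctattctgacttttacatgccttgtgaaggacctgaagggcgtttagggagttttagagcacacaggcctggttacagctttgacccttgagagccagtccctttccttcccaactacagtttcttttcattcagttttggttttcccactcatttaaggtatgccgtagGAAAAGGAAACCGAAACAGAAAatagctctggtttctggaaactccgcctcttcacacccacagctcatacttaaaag
Cxcl10: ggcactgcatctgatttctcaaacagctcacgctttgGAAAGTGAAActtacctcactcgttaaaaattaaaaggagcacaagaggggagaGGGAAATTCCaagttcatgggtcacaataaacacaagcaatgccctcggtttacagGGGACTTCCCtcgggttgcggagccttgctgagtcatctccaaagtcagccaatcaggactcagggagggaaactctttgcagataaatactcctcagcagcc
Cxcl2: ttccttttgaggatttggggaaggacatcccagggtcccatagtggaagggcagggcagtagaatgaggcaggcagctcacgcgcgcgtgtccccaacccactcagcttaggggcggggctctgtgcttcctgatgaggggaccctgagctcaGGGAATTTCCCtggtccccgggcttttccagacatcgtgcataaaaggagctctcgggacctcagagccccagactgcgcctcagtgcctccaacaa
Cmpk2: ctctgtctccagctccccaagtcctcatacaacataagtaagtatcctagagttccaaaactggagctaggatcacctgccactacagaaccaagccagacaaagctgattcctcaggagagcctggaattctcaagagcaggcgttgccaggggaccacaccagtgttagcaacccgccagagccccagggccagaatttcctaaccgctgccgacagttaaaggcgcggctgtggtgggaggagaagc
Rsad2 held 1 match of the interferon pattern, starting 120 bases before the start site. Ifit1 held 2, at 104 and 85 bases, and Isg15 held 3 overlapping ones from 78 bases. Cxcl10 held 1 at 213 bases and 2 kB-type matches at 159 and 103 bases. In Cxcl2 the capitals are 2 overlapping kB-type matches from 97 bases, and Cmpk2 held neither pattern in this window. Further genes were searched and are not shown. Of these, Trim26 held both patterns, while Cx3cl1, Epb41l2, Oasl1, Ifih1 and Ptgs2 held neither. Over the 27025 genes of the promoter table, 3.46% held the interferon pattern and 3.8% the kB-type pattern. A match is a description of letters, not of a bound site.

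The share of eligible cells in the gate was 2.66% (2.21 to 3.17) for naive and 3.70% (3.13 to 4.34) for Listeria cells, a ratio of 1.39 (1.09 to 1.79). Gated cells had a median of 6 Rsad2 UMIs (quartiles 4 and 10, highest 62) in the naive library. In the Listeria library the median was 9 (quartiles 4 and 22, highest 166). Cells with 30 or more Rsad2 UMIs numbered 4 naive and 25 Listeria cells, and those 25 cells held 48.2% of all Rsad2 UMIs in Listeria cells. The gated cells of the naive library held 1035 of its cells' 1760 Rsad2 UMIs, and those of the Listeria library 2823 of 3524. Just inside the threshold, 19 and 23 cells had exactly 3 Rsad2 UMIs. Just outside it, 72 and 77 cells had 2.

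**Figure D1:**
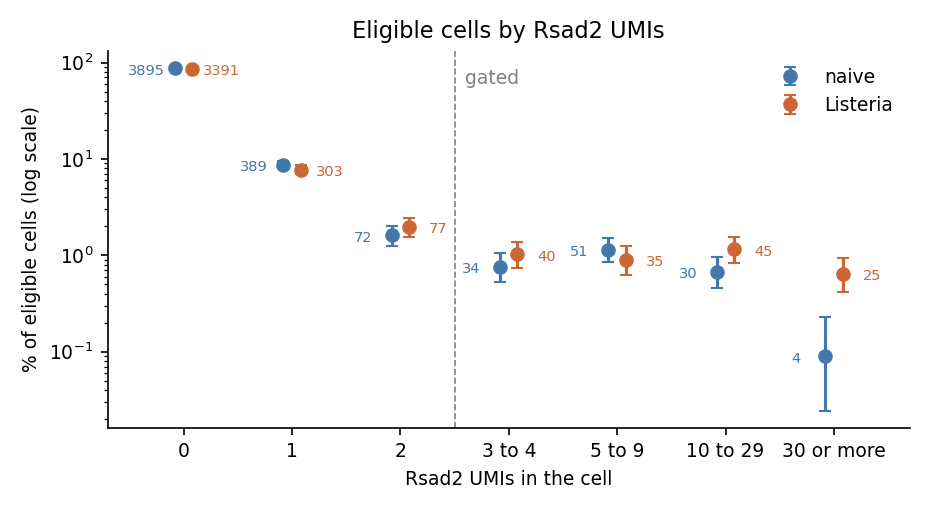
Share of eligible cells (log scale, %) by the number of Rsad2 UMIs in the cell, for the naive (blue) and the Listeria (orange) library; the number beside each point is its count of cells, and bars are 95% exact binomial intervals. The libraries have 3895 and 3391 cells with no Rsad2 UMI, and 4 naive and 25 Listeria cells reach 30 or more.

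Free RNA can put UMIs into cells that do not express a gene. Barcodes of 1 to 50 UMIs, taken as free RNA, held 38.6 (naive) and 73.1 (Listeria) Rsad2 UMIs per 1000000 UMIs. Over all cells the level was 34.7 and 89.8 on the same scale. How many Rsad2 UMIs of the gated cells came from free RNA was not tested. In the B-lineage cells left out by the gate, 2.62% of 1448 naive and 1.90% of 421 Listeria cells had any Rsad2 UMI, at median depths of 9445 and 10019 UMIs. In eligible cells, 13% and 13.4% had one, at the lower depths of 6472 and 6892. Gated cells were deeper than comparison cells in the naive library (median 7849 against 6412 UMIs) and slightly so in the Listeria library (7146 against 6826), and a fixed minimum of 3 UMIs is reached more easily in a deep cell. Every cell was also thinned to 2500 UMIs, and the whole gate, exclusions included, was applied to the thinned counts. It then held 49 naive and 83 Listeria cells, or 0.99% and 1.94% of the cells that passed the exclusions at that depth. Those cells are not the eligible cells above, because a cell left out at full depth can pass the exclusions once thinned.

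The gate did not pick out a single cell type. The cells were clustered without Rsad2 and the 8 exclusion genes, which gave 22 clusters. Cluster 8, led by Cxcl10, Cxcl2, Oasl1, Lif, Ccl4, Ifit1, Ptgs2 and Ifih1, held 53 of the 119 naive gated cells (44.5%) and 84 of the 145 Listeria gated cells (57.9%). It was 8.74% of eligible naive cells (7.93 to 9.60) and 7.84% of eligible Listeria cells (7.02 to 8.73). Within it, 13.6% of naive cells (10.3 to 17.4) and 27.4% of Listeria cells (22.5 to 32.7) were gated. Since interferon-induced genes helped to draw the cluster, its makeup is a description. Cluster 11, led by Tcf7, Zbtb16, Tox2 and Il18r1, held 29 naive gated cells (24.4%) and 11 Listeria ones (7.59%). Cluster 10, led by Cox6a2, Cmah, Wfdc17 and Flt3, held 13 and 1. Cluster 3, with Csf2rb, Phldb1 and S100a4 among its leading genes, was almost all of the Listeria library (24 naive and 940 Listeria eligible cells) and held 0 and 28.

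**Figure D2:**
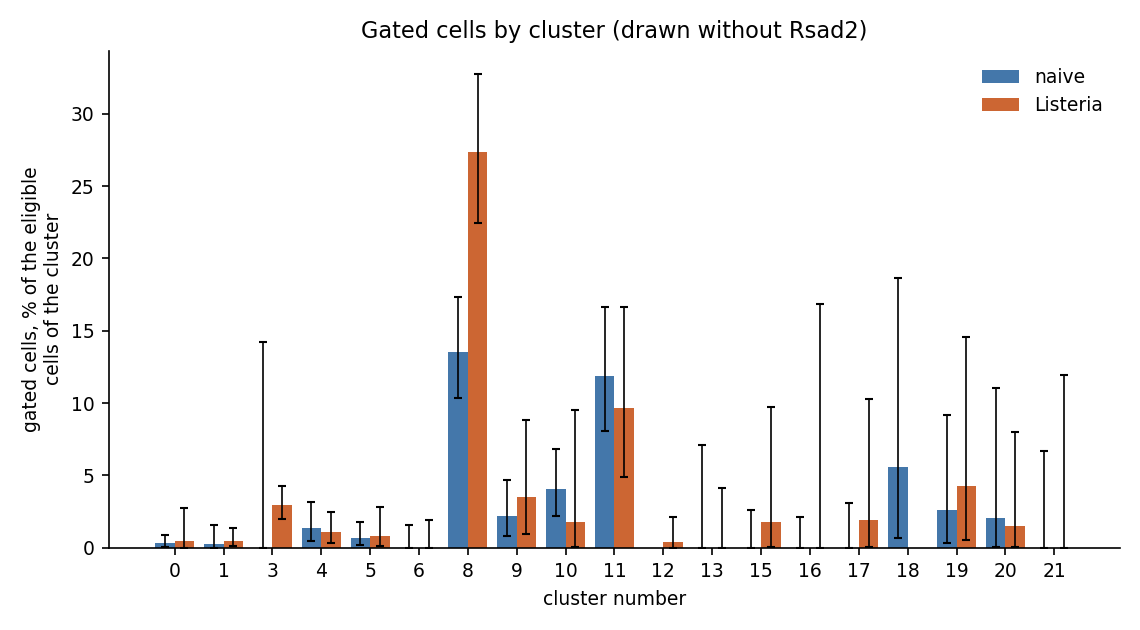
Gated cells as a percentage of the eligible cells of each cluster, for clusters with at least 20 eligible cells in a library; bars are the share in each library and lines the 95% exact binomial intervals. Cluster 8 has the highest share in both libraries, 13.6% and 27.4%, followed by cluster 11 with 11.9% of naive and 9.65% of Listeria cells.

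The stem and progenitor label was checked against its markers. Ptprc, the pan-leukocyte surface gene CD45, had a UMI in 85.7% of naive and 91.0% of Listeria gated cells. Kit, the stem cell factor receptor, had one in 58.0% and 71.0%, Cd34 in 48.7% and 44.1%, and Procr, the HSC surface gene EPCR, in 35.3% and 29.7%. The 25 genes of the HSC identity list summed to 2440 CPM (UMIs of a gene per 1000000 UMIs of the set) in naive gated cells against 2916 in comparison cells, and to 2383 against 2694 in the Listeria library. Kit was at 131 against 220 CPM and at 196 against 249 CPM. Markers of other lineages differed by list. B-lineage, neutrophil and platelet cells were left out by the gate; the 9 further B-lineage markers summed to 49.9 and 10.9 CPM and the 8 further neutrophil markers to 17.0 and 16. The 12 T and NK markers summed to 179 against 205 CPM in the naive and 76.5 against 148 CPM in Listeria cells. The 8 basophil and mast cell markers summed to 98.8 against 72.9 CPM (log2 ratio 0.44, 0.13 to 0.73) and to 20.2 against 37.2 CPM. Of these, the protease gene Cpa3 was at 95.8 against 35.4 CPM and 16 against 27.6 CPM, while Prss34 and Mcpt8 had 0 UMIs in gated cells of both libraries. The 11 erythroid markers were far higher in gated cells, at 8264 against 617 CPM and 9113 against 817 CPM, and the 9 plasma cell markers were at 10051 against 5984 CPM and 380 against 3594 CPM. The few cells that held most of the haemoglobin and, in the naive library, of the antibody transcripts are described further on. The 7 markers of innate lymphoid progenitors were higher in sum, at 804 against 501 CPM and 482 against 255. Zbtb16 and Tcf7, the PLZF and TCF1 factors of that lineage, were both detected in 26 of 119 naive gated cells and 8 of 145 Listeria ones, against 4.29% and 2.54% of comparison cells. In cluster 11, Zbtb16 was at log2 ratios of -0.31 and 0.06 in gated against comparison cells.

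The next question was which other transcripts the gated cells held. Levels are UMIs summed over the cells of a set, in CPM, and differences are log2 ratios of gated over comparison cells of the same library. A gene was counted as higher or lower past 1.5-fold, among genes with a mean of at least 30 CPM. In the naive library 120 of 4260 genes were higher (2.82%) and 169 lower (3.97%). In the Listeria library 286 of 4398 were higher (6.5%) and 460 lower (10.5%). The median over all genes tested was -0.05 and -0.09. The balance depends on the scaling: with median-ratio size factors the medians were 0.06 and 0.09, and the counts became 171 higher and 91 lower, and 455 higher and 208 lower. With TMM factors they were 147 and 130, and 347 and 332. Both libraries had 80 genes higher in common (1.98% of the 4049 tested in both), which is 66.7% of the naive and 28.0% of the Listeria list. They had 69 lower in common (1.7%), or 40.8% and 15%.

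Effectors of the interferon response were among the genes with the highest ratios in both libraries. Ifit1, which binds RNA lacking proper cap methylation, was at 159 against 5.15 CPM in the naive library and at 180 against 4.28 CPM in the Listeria library. Its log2 ratios were 4.95 (4.61 to 5.29) and 5.39 (5.05 to 5.74), and it had a UMI in 47.1% and 42.8% of gated cells against 2.52% and 2.21% of comparison cells. Oasl1, a regulator of Irf7 translation, was at 174 against 7.80 CPM and 233 against 5.08 CPM, with ratios of 4.48 and 5.52. Isg15, a ubiquitin-like modifier, was at 225 against 18.4 CPM and 205 against 8.96 CPM, with ratios of 3.62 and 4.52. All 3 had lower intervals of the ratio well above 0 in both libraries, and their highest level in comparison cells was 18.4 CPM.

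Ifih1 encodes MDA5, a cytosolic sensor of long double-stranded RNA. It was at 233 against 32.2 CPM in the naive library (log2 ratio 2.86, 2.64 to 3.07) and at 551 against 35.2 CPM in the Listeria library (3.97, 3.82 to 4.11). Rtp4, an interferon-induced transmembrane protein, was at 59.9 against 10.2 CPM and 89.1 against 9.88 CPM, ratios of 2.55 and 3.17. Trim26, a ubiquitin ligase, was at 178 against 44.4 CPM and 155 against 40.9 CPM, ratios of 2.0 and 1.92. Of these genes Ifih1 differed most between the gated cells of the libraries, at 1.24 (1.02 to 1.46) for Listeria over naive, against 0.13 in comparison cells.

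Cmpk2 encodes a mitochondrial UMP-CMP kinase that helps to supply CTP, the substrate of viperin, and lies beside Rsad2 on chromosome 12. In the GENCODE vM21 annotation (mm10) Rsad2 spans 26442746 to 26456452 on the minus strand and Cmpk2 26469204 to 26479837 on the plus strand, with start sites 12752 bases apart. Cmpk2 was at 66.8 against 6.7 CPM in the naive library and 56.3 against 7.04 CPM in the Listeria library, ratios of 3.32 (2.89 to 3.73) and 3.0 (2.57 to 3.41). Rnf144a, the neighbour on the other side, was at 45.9 against 36.2 CPM and 38.7 against 39.7 CPM. Among the 8 tested genes of the viperin reaction and pyrimidine nucleotide list, Cmpk2 and Uck2, a uridine-cytidine kinase, were higher and Dctpp1 lower in the naive library. In the Listeria library Cmpk2 was higher and Cmpk1, Dctpp1 and Nme1 lower.

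The type I interferon response list had 20 tested genes in each library. In the naive library 11 were higher and 1 lower (Bst2), with a median log2 ratio of 0.79. Among the higher genes, Ifit2 had 42 UMIs in 1 naive cell. In the Listeria library 13 were higher and 0 lower, with a median of 1.30. Without clusters 3 and 11 the naive median was 0.25 and the Listeria median 1.06. Without any filter on level, 27 of 45 listed genes were higher in gated cells of both libraries, against 15.5% of all 16526 genes with a UMI in the comparison cells of both. That share includes genes with very few UMIs, and lists lay on either side of it. It was passed by 9 of 20 cytoskeletal linkers and 7 of 17 MHC class I genes, but by only 1 of 22 S phase genes. How much of these differences goes with the level of the genes was not tested. At 2500 UMIs per cell the list gave a median of 5 UMIs in naive gated cells (quartiles 3 and 8) against 2 in comparison cells, and 6 (3 and 9) against 2 in the Listeria library. The distributions overlapped: 15.9% and 7.20% of comparison cells had at least the gated median. Not every list member followed. Ifi203, a nuclear DNA-binding protein, was at -0.28 and -0.40. Irf7, the factor that amplifies type I interferon, had low levels, at or below 46.6 CPM at every Rsad2 level in both libraries. Within cluster 8 it was at log2 ratios of -0.02 and -0.38. Within cluster 11 it was higher in gated cells, at 26.0 against 9.72 CPM (naive, 7 gated UMIs) and 52.2 against 0 CPM (Listeria, 5 gated UMIs). Naive cluster 10 and Listeria cluster 3 had 1 gated UMI each.

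Chemokines were the other large group. Cxcl10, the ligand of CXCR3, had the highest level of the chemokines named: 1423 against 101 CPM in the naive library and 1739 against 51.0 CPM in the Listeria library. Its log2 ratios were 3.82 (3.72 to 3.91) and 5.09 (4.99 to 5.19), and a UMI of it was found in 70.6% and 71.7% of gated cells against 13.3% and 8.91% of comparison cells. Ccl4, an attractant of monocytes and T cells, was at 1019 against 126 CPM and 1023 against 96.1 CPM, ratios of 3.02 and 3.41. Ccl5, an attractant of T cells, was at 539 against 134 CPM and 1227 against 85.7 CPM, ratios of 2.0 and 3.84. Cxcl2, a neutrophil attractant, was at 658 against 173 CPM and 1247 against 136 CPM, ratios of 1.93 and 3.19. In the list of chemokines and cytokines, 6 of 9 tested genes were higher and 0 lower in the naive library (median 1.42), and 5 higher and 1 lower (Mif) in the Listeria library (median 2.05).

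Cx3cl1 and Epb41l2 were set as markers of these cells together with Cxcl10, with earlier results of these same data known. Their levels are therefore a description, not a check. Cx3cl1, the membrane-bound chemokine fractalkine, was at 68.8 against 25.8 CPM in the naive library and 170 against 41.0 CPM in the Listeria library, ratios of 1.42 (1.04 to 1.78) and 2.05 (1.83 to 2.27). Epb41l2, a linker of membrane and cytoskeleton, was at 93.8 against 57.7 CPM and 258 against 140 CPM, ratios of 0.70 (0.38 to 1.00) and 0.88 (0.71 to 1.05). Within cluster 8 Epb41l2 was at 0.38 (-0.07 to 0.81) and -0.08 (-0.32 to 0.16), and within cluster 3 of the Listeria library at 0.09 (-0.30 to 0.46). All 3 genes were detected together in 15.1% of naive and 39.3% of Listeria gated cells, against 1.21% and 2.30% of comparison cells. None of the 3 was detected in 16.8% and 11.7% of gated cells. These shares are at full depth, which was higher in gated than in comparison cells.

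**Figure D3:**
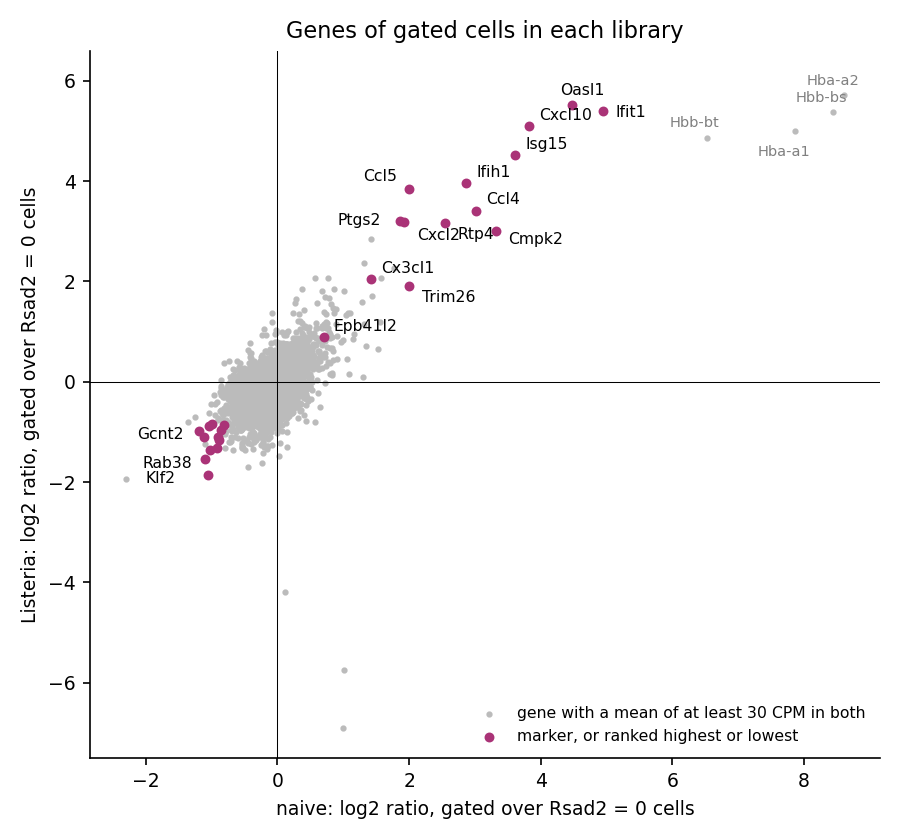
Log2 ratio of gated over comparison cells in the naive (x axis) and the Listeria library (y axis) for genes with a mean of at least 30 CPM in both; magenta points are the markers and the 12 highest and 12 lowest genes by the smaller ratio, labelled in part. Ifit1, Oasl1, Cxcl10 and Isg15 lie above 3.6 in both libraries, Epb41l2 lies at 0.70 and 0.88, and the haemoglobin genes at the far right come from few cells.

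NF-kB subunits and inhibitors were spread differently in the libraries. Of 15 tested genes, 1 was higher and 0 lower in the naive library (median 0.37), whereas 13 were higher and 0 lower in the Listeria library (median 0.83). Nfkb1, the p105 and p50 subunit, was at 377 against 293 CPM in the naive library and 694 against 307 CPM in the Listeria library, ratios of 0.37 and 1.18. Nfkbia, the inhibitor IkB alpha, was at 1718 CPM in gated cells of both libraries against 1335 and 944 CPM in comparison cells, so the higher Listeria ratio of 0.86 against 0.36 came with a lower comparison level. Traf1, an adaptor of TNF receptors, was at 122 against 82.1 CPM and 371 against 88.7 CPM, ratios of 0.57 and 2.06. Ptgs2, the prostaglandin synthase COX-2, was at 69.8 against 19.3 CPM and 126 against 13.7 CPM, ratios of 1.86 and 3.20. Within cluster 8 Nfkbia was at 0.02 and -0.09, and Traf1 at 0.32 (-0.05 to 0.67) and 0.87 (0.65 to 1.09). In cluster 11 Nfkbia was at -0.06 and -0.16, and Traf1 at -1.33 and 1.53. In cluster 10 of the naive library Nfkbia and Traf1 were at 0.06 and -0.62, and in cluster 3 of the Listeria library at 0.48 and 1.07.

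Interferon gamma targets had lower medians than the type I list but larger ratios of their sums, and the difference between the lists was not tested. The summed targets were at log2 ratios of 1.29 and 1.86, and the summed type I list at 1.09 and 1.49. Cxcl10 counts among the targets and made up 1423 of their 2266 CPM in naive and 1739 of 2725 CPM in Listeria gated cells. In comparison cells it was 101 of 924 and 51.0 of 753 CPM. The larger ratios of the summed targets therefore rest largely on this 1 gene. Of 9 tested interferon gamma targets, 3 were higher and 2 lower in the naive library (median -0.13), and 5 higher and 1 lower in the Listeria library (median 0.65). Gbp3, an interferon-induced GTPase, was at 52.9 against 21.3 CPM and 149 against 28.7 CPM, ratios of 1.31 and 2.37. Psmb8, an immunoproteasome subunit, was at -0.15 and -0.32. Of 12 interferon receptor and Jak-Stat genes, 0 were higher in the naive library and 5 in the Listeria library, where 1 (Irf2) was lower. Jak2, a receptor-associated kinase, was at 0.40 and 0.84, and Cish, a feedback inhibitor of cytokine signalling, at 0.38 and 0.93. MHC class I genes had medians of -0.06 and 0.00, and B2m, the class I light chain, was at 1306 against 1372 CPM and 1206 against 1169 CPM.

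Immediate early genes split. Atf3, a stress-induced AP-1 family factor, was at 2429 against 711 CPM in the naive library and 1689 against 352 CPM in the Listeria library, ratios of 1.77 (1.71 to 1.83) and 2.26 (2.19 to 2.33). Maff and Nr4a3 were higher in both libraries too, at 0.76 and 1.18 and at 0.71 and 0.82. Klf2, a zinc finger factor, was lower in both: 294 against 610 CPM (-1.05, -1.22 to -0.89) and 187 against 675 CPM (-1.86, -2.05 to -1.66). Egr1 was at 442 against 606 CPM and 197 against 636 CPM, and Fos at 459 against 664 CPM and 329 against 822 CPM, both past the fold in the Listeria library alone. A Fos UMI was found in 58.8% of naive and 25.5% of Listeria gated cells. Of the 22 and 21 tested members, 3 were higher and 1 lower in the naive library (median 0.00), and 3 higher and 7 lower in the Listeria library (median -0.32).

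Among the lowest genes in both libraries were Tsc22d3, the glucocorticoid-induced leucine zipper, and Rab38, a Rab GTPase. Tsc22d3 was at 164 against 332 CPM and 95 against 243 CPM, ratios of -1.02 and -1.35. Rab38 was at 31.9 against 68.5 CPM and 24.4 against 71.3 CPM, ratios of -1.10 and -1.55. The others named by the rule were Vamp5, Gcnt2, Hist1h2ae, Prkar2b, S100a1, Anapc13, Rfc2, Rsu1 and Atp13a2, whose ratios lay between -1.33 and -0.82. S phase genes were low in gated cells of the Listeria library, where 0 of 9 tested were higher and 6 lower (median -0.80), among them Mcm3 at 50.4 against 97.0 CPM. In the naive library none of 8 passed the fold (median -0.23). In the HSC identity list 1 of 18 was higher and 2 lower in the naive library, and 3 of 17 higher and 4 lower in the Listeria library. Ctnnal1, the alpha-catulin gene that marks HSCs, was higher in both, at 85.8 against 28.7 CPM and 140 against 33.2 CPM, ratios of 1.58 and 2.07.

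**Figure D4:**
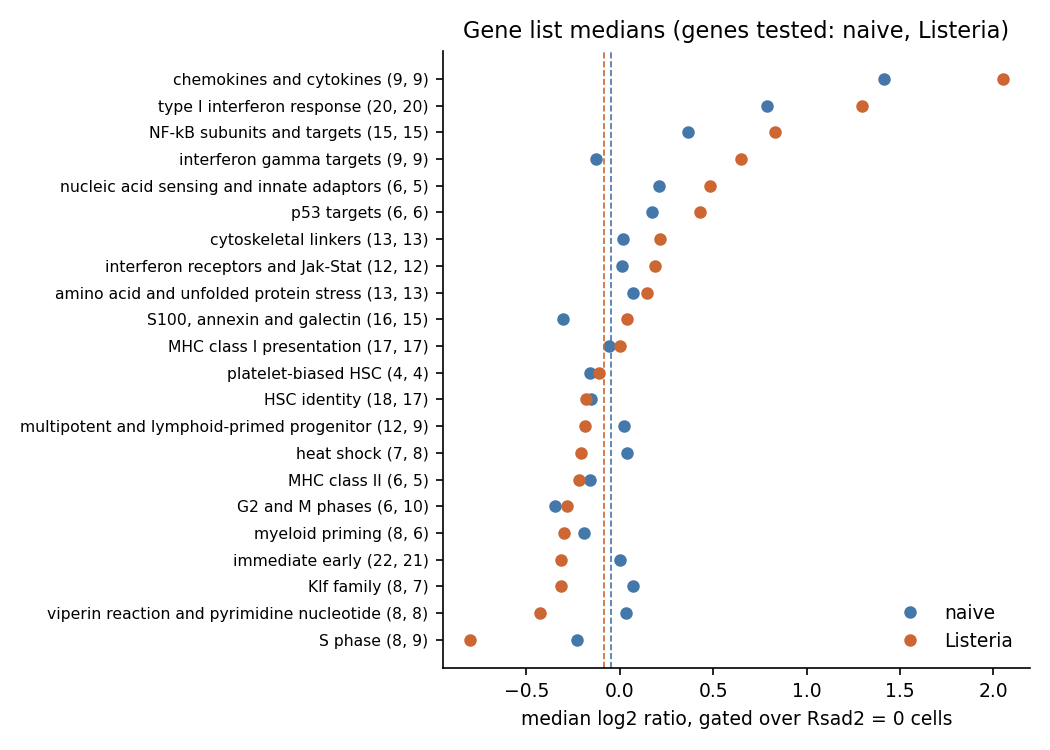
Median log2 ratio of gated over comparison cells for each gene list, cell type markers aside, with at least 4 genes tested in both libraries (numbers tested in brackets); dashed lines are the medians over all genes tested, -0.05 and -0.09. Chemokines and the type I interferon response lie highest in both libraries, and the S phase list lies lowest in the Listeria library, at -0.80.

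Haemoglobin transcripts were also higher in the sums, at 3920 against 11.2 CPM for Hbb-bs in the naive library and 4248 against 102 CPM in the Listeria library. They came from very few cells. Cells with at least 100 haemoglobin UMIs numbered 7 among the eligible cells of each library. Of these, 2 naive and 3 Listeria cells were gated, and they held 7812 of 7826 and 10145 of 10163 haemoglobin UMIs of the gated cells. The antibody gene Igkc behaved likewise: it was at 7454 against 3720 CPM in the naive library, where 1 gated cell held 60.3% of its UMIs.

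The levels of several genes went with the amount of Rsad2 in the cell, below the gate as well as above it. In the Listeria library Ifih1 was at 35.2 CPM in cells with no Rsad2 UMI, at 53.1 with 1, at 129 with 2, at 250 with 3 to 4, at 180 with 5 to 9, at 727 with 10 to 29 and at 1322 with 30 or more. In the naive library the same steps were 32.2, 59.7, 80.9, 166, 180, 341 and 606 CPM. Isg15 went from 8.96 to 563 CPM in the Listeria library and from 18.4 to 856 CPM in the naive library. Cxcl10 reached 4726 and 4388 CPM in the highest class. Ccl5 differed between the libraries there, at 3342 CPM (3089 to 3609) in the 25 Listeria cells and 820 CPM (520 to 1231) in the 4 naive cells. Klf2 was lower in the classes of 2 or more Rsad2 UMIs than in cells with none: it went from 675 to 10.3 CPM in the Listeria library and from 610 to 35.7 CPM in the naive library, the last resting on 1 UMI. Fos followed no single direction. In the naive library it was at 664 CPM with no Rsad2 UMI, 751 with 1, 412 with 2, 814 with 3 to 4, 461 with 5 to 9 and 170 with 10 to 29. In the Listeria library it was at 822, 1023, 727, 443, 562 and 203 CPM in these classes, and the 25 highest cells had 0 UMIs, with an upper 95% limit of 19.1 CPM. Atf3 was at 3924 and 1973 CPM in the highest class of the naive and the Listeria library. Median depth in these classes lay between 6412 and 8921 UMIs.

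**Figure D5:**
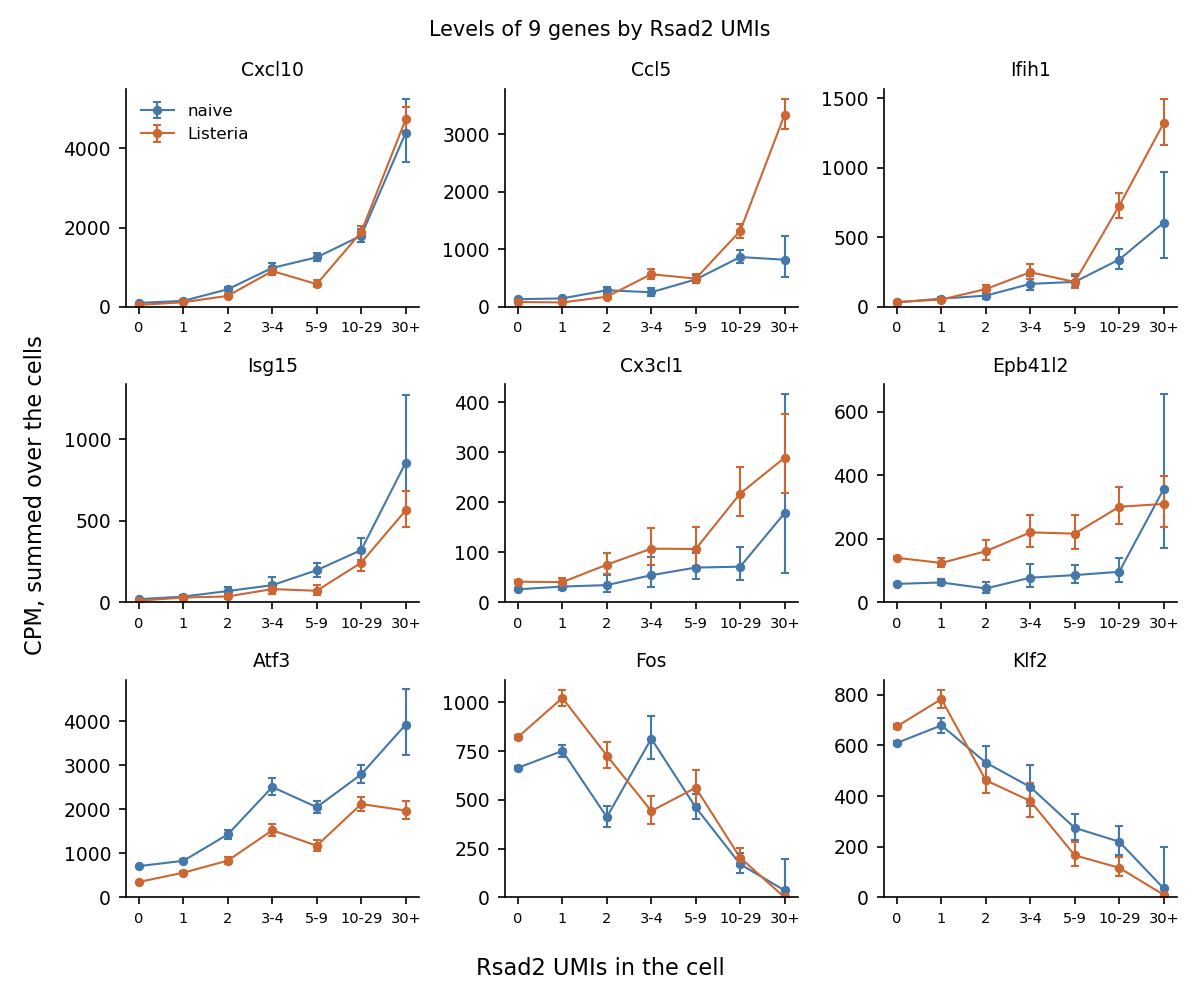
Levels of 9 genes (CPM, UMIs summed over the cells of each class) by the number of Rsad2 UMIs in the cell; lines join the classes of each library, and bars are 95% Poisson intervals. Ifih1 reaches 1322 CPM in Listeria and 606 CPM in naive cells with at least 30 Rsad2 UMIs, while Klf2 is at 10.3 CPM in those Listeria cells (2 UMIs) and 35.7 CPM in those naive cells (1 UMI).

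Gated and comparison cells were also compared within the same cluster. The clusters were drawn with all of these genes except Rsad2, and Cxcl10 and Cxcl2 lead cluster 8. Its comparison cells were thus placed there partly by these genes, so smaller ratios within it are a description and do not separate the genes. Within cluster 8 the type I interferon list, summed, was at 2144 against 1049 CPM in the naive library (log2 ratio 1.03, 0.92 to 1.15) and at 3096 against 966 CPM in the Listeria library (1.68, 1.58 to 1.79). In cluster 11 the ratios were 1.84 and 2.20, in cluster 10 of the naive library 0.93 and in cluster 3 of the Listeria library 1.13. Cxcl10 was at 1.91 and 2.56 within cluster 8, and Ccl5 at 2.96 and 5.27. Cxcl2 was at 0.44 and 0.49 there, and Atf3 at 0.63 and 0.45. Over all eligible cells Cxcl2 was at 1.93 and 3.19, and Atf3 at 1.77 and 2.26. Klf2 was at -1.26 in the naive and -0.24 in the Listeria cells of cluster 8, and Fos at -0.88 and 0.51. Other clusters differed. In cluster 11 Atf3 was at 0.89 and 0.76, Cxcl2 at -0.97 and 0.20, Klf2 at 0.12 and -0.66 and Fos at -0.20 and -0.01. In cluster 10 of the naive library the 4 genes were at 0.95, 0.50, -1.08 and 0.07. In cluster 3 of the Listeria library they were at 1.64, -0.42, 0.44 and 0.30, where Klf2 and Fos rest on 5 gated UMIs each. With the comparison cells weighted to the clusters of the gated cells, 78 genes were higher and 81 lower in the naive library, and 131 higher and 75 lower in the Listeria library.

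The last comparison set the gated cells of the Listeria library against those of the naive library. Of 4193 genes tested, 443 were over 1.5-fold higher in the Listeria library (10.6%) and 282 lower (6.73%), with a median of 0.05. TMM factors gave 405 and 323, and median-ratio factors 458 and 297. Sgms2, a sphingomyelin synthase, had the highest ratio, at 104 against 14 CPM (2.90, 2.10 to 3.81). It was also higher in Listeria than in naive comparison cells, by 3.02. Vcam1, the adhesion ligand of integrin VLA-4, was at 79.0 against 18.0 CPM (2.14, 1.40 to 2.95), and its comparison cells were at 4.76 and 3.37 CPM. Gch1, the first enzyme of tetrahydrobiopterin synthesis, was at 149 against 42.9 CPM (1.79), and Cd14, the lipopolysaccharide co-receptor, at 54.6 against 16 CPM (1.78). Hivep3, a zinc finger factor that binds kB sites, was at 103 against 23 CPM (2.16), Gbp2, an interferon-induced GTPase, at 56.3 against 16 CPM (1.82), Senp5, a SUMO protease, at 48.8 against 14 CPM (1.80), and Anxa2, a membrane-binding annexin, at 178 against 51.9 CPM (1.78).

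Lower in the Listeria gated cells were Tcf7, at 39.5 against 153 CPM (-1.95, -2.45 to -1.47), Gabbr1 (-1.64), the T cell costimulator Cd28 (-1.62), Rasal3 (-1.51), Flot1 (-1.40), H2-Ob (-1.34), Klf4 and Fosb. Klf4, a zinc finger factor of the immediate early response, was at 270 against 808 CPM (-1.58), with -1.10 in comparison cells. Fosb, an AP-1 subunit, was at 670 against 1686 CPM (-1.33), with -0.50 in comparison cells. Tcf7 went the other way within cluster 8, at 1.32, but this rests on 1 UMI in naive and 4 UMIs in Listeria gated cells. The share of gated cells in cluster 11, which Tcf7 leads, was 24.4% (naive) and 7.59% (Listeria). The genes highest against comparison cells were not alike in this comparison. Ccl5 was at 1.19 (1.04 to 1.33), Cxcl2 at 0.92 (0.79 to 1.06) and Ptgs2 at 0.85 (0.43 to 1.28), beside Ifih1 at 1.24. The intervals of Ifit1, at 0.18 (-0.12 to 0.49), Isg15, at -0.14 (-0.40 to 0.13), Ccl4, at 0.01 (-0.11 to 0.13), Cmpk2, at -0.25 (-0.76 to 0.26), and Trim26, at -0.20 (-0.50 to 0.11), held 0. Rtp4 was at 0.57, Oasl1 at 0.42 and Cxcl10 at 0.29. Isg15 and Cxcl10 were meanwhile lower in Listeria than in naive comparison cells, by -1.04 and -0.99. Cx3cl1 was at 1.30 and Epb41l2 at 1.46, with 0.67 and 1.28 in comparison cells.

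The promoter patterns were also counted over the genes that were higher or lower in both libraries. Of the 80 higher genes, 65 were in the promoter table, and 7 of them (10.8%) held the interferon pattern: Cxcl10, Gbp3, Ifit1, Irgm1, Isg15, Plk2 and Trim26. The kB-type pattern was in 6 (9.23%): Clic4, Cxcl10, Cxcl2, Neurl3, Trim26 and Vmp1. Of the 52 lower genes in the table, 1 (1.92%) held each pattern. Over the genes tested in both libraries the shares were 3.24% and 4.69%, and in the type I interferon list the interferon pattern was in 16 of 36 genes (44.4%).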

How the data were processed

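2 droplet (10x Genomics) libraries of mouse marrow cells were analysed, 1 from naive and 1 from Listeria-challenged mice. The deposited matrices give unnormalized UMI counts, 1 value for each gene in each barcode, which the authors made with Cell Ranger 3.0.2 on mm10, per the submitters' processing notes, with 31053 genes. Samples were grouped by their labels. Cells, gate and comparison cells followed the rule given above. Doublets were not called or removed; an alternative left out the 5% of cells with the most UMIs. UMIs were summed per set and given as CPM, with exact binomial or Poisson intervals (scipy 1.17.1). With 1 library per group no test across samples was made. On simulated data with no planted change, 0.79% of 4060 genes of the naive design and 0.5% of 4198 of the Listeria design passed 1.5-fold. The simulation drew Poisson sums at the levels of the comparison cells, with no variation between cells. Its shares cover counting error only and are not the share to be met by sets of real cells. Clusters came from scanpy 1.11.5 (2000 variable genes, 30 components, 15 neighbours, Leiden resolution 1), without the 9 gate genes. TMM factors came from edgeR 4.0.16 and size factors from DESeq2 1.42.0. Motifs were searched in RefSeq promoters.

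Named genes were the markers, the 12 highest and 12 lowest genes by the smaller of both libraries' ratios, the 8 highest and 8 lowest of Listeria over naive gated cells, and up to 4 members of each of 35 lists. Sex-linked and unnamed genes, gate genes, those of ribosomal proteins or the mitochondrion, and genes with over 25% of a gated set's UMIs in 1 cell, were left out of the ranks. Other genes named were chosen after their values were seen. The members and the gene lists were chosen with earlier results of these data known. Positions came from GENCODE vM21, with 30934 of 31053 identifiers matched. Alternatives changed the gate, cell filters, comparison cells, scaling, level filter and fold.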

Additional observations from a re-analysis of the deposited data

Results flagged for a closer look

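The antibody genes Jchain and Igkc went opposite ways in the 2 libraries. Jchain, the joining chain of secreted antibody, was at 512 against 255 CPM in naive gated and comparison cells (log2 ratio 1.01) and at 3.36 against 182 CPM in the Listeria library (-5.76). Igkc, the kappa light chain, was at 7454 against 3720 CPM (1.00) and 19.3 against 2323 CPM (-6.91). In the naive library 1 gated cell held 57.7% of the Jchain and 60.3% of the Igkc UMIs of the gate. Cluster 18, led by Igkc, Iglc1 and Jchain, held 2 naive and 0 Listeria gated cells, beside 32 naive and 13 Listeria comparison cells. The difference between the libraries was not tested.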

How the results depend on the processing

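No paired analysis was possible because each group is 1 library; for the same reason no library could be left out. With a minimum of 2 Rsad2 UMIs the shares were 4.27% (naive) and 5.67% (Listeria), and with 5 they were 1.90% and 2.68%; thinned cells gave 0.99% and 1.94%, and the naive share without clusters 3 and 11 was 2.14%. Higher and lower genes against comparison cells then numbered, naive first: 78 and 76, 167 and 139 (minimum 2); 78 and 81, 131 and 75 (comparison weighted by cluster); 314 and 733, 536 and 1311 (mean of 10 CPM); 42 and 13, 106 and 73 (100 CPM); 41 and 17, 101 and 71 (2-fold). Median-ratio factors gave 91 lower naive genes and 455 and 208 in the Listeria library. Cluster 8 alone gave 236 higher naive and 232 lower Listeria genes, and without clusters 3 and 11 there were 324 and 715 lower. For Listeria over naive gated cells, the counts were 157 lower (minimum 2), 1048 and 867 (10 CPM), 88 and 65 (100 CPM), and 115 and 56 (2-fold). The type I interferon median was 0.48 and 0.70 (minimum 2), 0.46 in the naive library (10 CPM), 1.83 and 4.24 (100 CPM), 0.97 and 0.95 in the Listeria library (weighted by cluster, cells with a Kit UMI), and 0.25 in the naive library without clusters 3 and 11. Counts changed with the level filter and the fold because other genes or limits enter; the cause of the other changes was not tested.

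Directions that reversed were the innate lymphoid progenitor median (-0.24 in the naive library weighted by cluster, -0.049 in Listeria cluster 8), Epb41l2 in the Listeria library (-0.013 weighted, -0.078 in cluster 8), Vamp5 there (0.10 and 0.51), Hist1h2ae there (0.20 in cluster 8), and Tcf7 for Listeria over naive (1.32 in cluster 8). The value of -0.049 rests on 1 tested gene, and that of Tcf7 on 1 naive and 4 Listeria UMIs. Of 728 values of named genes against comparison cells, 540 moved by less than their counting interval and 5 reversed. The analyses of cluster 8, without clusters 3 and 11 and without haemoglobin-rich cells were chosen after seeing the data. At these depths a level of a few CPM rests on a handful of UMIs, and differences between the libraries cannot be told apart from those between single preparations.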

Other observations

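Transcripts of interferons themselves were looked for among the 21 interferon genes of the matrix, a choice made after values were seen. All Ifnb1 UMIs of both libraries lay in gated cells: 21 UMIs in 2 naive cells and 1 UMI in 1 Listeria cell. A single naive gated cell held 19 of them, together with 5 UMIs of Ifna2, 2 of Ifna1 and 3 of Ifnl3, the only UMIs of those 3 genes in the naive cells. This cell had 8486 UMIs, lay in cluster 11 and held 7 UMIs of Rsad2, 46 of Cxcl10, 65 of Ccl4, 42 of Ifit2 and 1 of Zbtb16. Ifng was spread otherwise: 34 of its 224 UMIs in naive cells lay in 6 gated cells, and 1 of 154 in the Listeria library.

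Ifit2, an interferon-induced RNA-binding protein, was at 155 CPM in naive and 28.6 CPM in Listeria gated cells, against 5.41 and 5.56 CPM in comparison cells. Ccl3, a chemokine next to Ccl4, was at 86.8 against 49.9 CPM and 77.3 against 59.4 CPM, log2 ratios of 0.80 and 0.38.

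Barcodes with at least 1000 UMIs that failed a cell filter held 147 (naive) and 166 (Listeria) Rsad2 UMIs, or 50.4 and 196 CPM. Of these barcodes, 12 of 1443 and 13 of 394 had at least 3 Rsad2 UMIs. Among the cells left out for other lineages, 16 of 1900 naive and 9 of 923 Listeria cells had at least 3, the highest with 25 and 118 UMIs.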
